A study of Mus musculus with 2 samples.

Results

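Lysosomes and endosomes break proteins down with a small set of proteases, and the transcripts of 8 genes of this system were followed here through tendon cells: legumain (Lgmn), the cathepsins Ctsa, Ctsb, Ctsd, Ctsk, Ctsl and Ctss, and the secreted inhibitor cystatin C (Cst3). The genes were chosen by name, with earlier results of these data known, and all 8 of them were found once each among the 27998 genes of the expression matrices. The paper already lists Lgmn and Ctsb as higher in mutant cells than in wild-type tenocytes of the same libraries. The measurement was single-cell RNA sequencing with a 3′ chemistry of tendon cells from mouse pups at postnatal day 7, 1 library per condition. The first library is labelled wild-type, although a second label of the same sample calls it heterozygous (Het), so its exact genotype is not settled by the labels and it is called wild-type below. The second is the Tgfbr2;ScxCre mutant, in which a floxed TGFβ type II receptor gene is deleted by a Cre recombinase. The Scleraxis (Scx) regulatory sequence drives this Cre in tendon cells. The paper writes the genotype as Tgfbr2 f/-;ScxCre, a floxed over a null allele. By that notation mutant cells without Cre, immune cells among them, also carry the null allele. Both libraries pooled fore- and hindlimb tendons of 2 pups, and by the study's methods the mouse strains also carried the tendon reporter ScxGFP and the Cre reporter Ai14 Rosa26-tdTomato. The surface of the tendons was not scraped off, so cells of the tissue around them were kept.

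Legumain is an asparaginyl endopeptidase that cuts the pro-forms of several cathepsins into their mature chains. Cathepsins B, K, L and S are cysteine proteases of the papain family, cathepsin D is an aspartyl protease and cathepsin A a serine carboxypeptidase that protects other lysosomal enzymes. Cystatin C is secreted and blocks papain-family cathepsins and, at a separate site, legumain. In connective tissue cathepsin K is best known as the collagen-cutting protease of osteoclasts, cathepsin S as the enzyme that trims the invariant chain of MHC class II in antigen-presenting cells, and macrophages are rich in the whole system.

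Cells were put into classes by counts of unique molecular identifiers (UMIs, 1 per captured transcript). Scx-high cells had Scx at 30 or more per 10,000 UMIs. Scx-low fibroblasts were below that and had 5 or more UMIs over Ly6a, Cd34, Dpt, Lum and Col3a1. Immune cells had 5 or more over Tyrobp, Fcer1g, Laptm5 and Ptprc. The wild-type library held 1165 Scx-high cells, 824 Scx-low fibroblasts and 175 immune cells among 2364 cells, and the mutant library 235, 1897 and 172 among 2592. The median depth in the same order was 4299, 3754 and 2413 UMIs per cell in the wild-type library and 4251, 2915 and 1648 in the mutant. Of the marker lists, 9 tenocyte genes summed to 90498 counts per 1000000 UMIs (CPM) in wild-type Scx-high cells and 31907 in mutant ones. Col1a1 alone held 73438 CPM of the wild-type sum. In Scx-low fibroblasts the same list summed to 12423 and 14138 CPM. The 8 macrophage genes summed to 24268 and 24412 CPM in immune cells against at most 29.3 CPM in the other 2 classes. The sum of 7 fibroblast genes did not set the Scx-low fibroblasts of the wild-type library apart. It was 13477 CPM in Scx-high cells and 14825 in Scx-low fibroblasts (7695 and 13527 in the mutant). A sum can hide single genes: Pi16 of this list was at 11.9 CPM in wild-type Scx-high cells and 668 in wild-type Scx-low fibroblasts. The other genes of the list are not given singly, and the class is known by its rule rather than by this sum. Scx counts include the ScxGFP transcript, and 3′ counts of Tgfbr2, at 30.4 CPM in wild-type and 45.2 in mutant Scx-high cells, lie outside what the deletion removes and check nothing. The paper reports that most cells of mutant tendons lost ScxGFP by this age and traces them to tenocytes. It proposes that mutant cells still positive for ScxGFP are newly recruited. Classes of the same name may therefore hold different cells in the libraries, and ratios between them may mix cell origin with condition. Only 2 cell barcodes were shared by the libraries. With 1 library per condition no test between conditions was possible, and condition and library cannot be told apart. Every interval below is an exact 95% interval for counting error alone, and UMIs of 1 cell are not independent samples of the condition.

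The genes lie on 6 chromosomes. On mm10 (GRCm38), Lgmn spans chr12:102394084-102439813, Ctsb chr14:63122462-63145923, Ctsd chr7:142375911-142388038 and Ctsl chr13:64359337-64370890. Cst3 and Ctsa share chromosome 2 at chr2:148871722-148875692 and chr2:164832873-164841032. Ctsk (chr3:95499256-95509362) and Ctss (chr3:95526786-95556403) are neighbours on the same strand, with 17423 bases between them. Below they show opposite contrasts between immune cells and the Scx-high and Scx-low fibroblast classes. Their upstream sequences are therefore shown side by side, each as the 250 bases before the RefSeq start (GRCm38.p6, plus strand, chr3:95498960-95499209 and chr3:95526536-95526785), with capitals on a motif of the type that interferon regulatory factors bind, read as GAAA, 2 bases of any kind and GAAA:
Ctsk: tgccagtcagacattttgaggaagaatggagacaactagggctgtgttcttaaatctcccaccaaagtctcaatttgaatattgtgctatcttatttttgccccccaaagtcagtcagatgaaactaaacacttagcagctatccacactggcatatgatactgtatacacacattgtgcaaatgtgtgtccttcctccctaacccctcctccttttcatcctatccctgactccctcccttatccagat
Ctss: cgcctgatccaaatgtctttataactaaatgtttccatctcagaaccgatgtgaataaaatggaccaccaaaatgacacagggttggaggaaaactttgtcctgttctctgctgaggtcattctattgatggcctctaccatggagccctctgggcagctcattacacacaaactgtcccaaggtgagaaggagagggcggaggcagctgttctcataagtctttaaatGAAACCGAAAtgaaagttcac
The match in the Ctss sequence lay 21 to 12 bases before the start. On either strand this motif was found in 2.98% of 32851 promoters of the same length, and GAGGAAGT, a PU.1-type motif also read on both strands, in 2.44% of promoters and in none of the members. GTCACGTG, which contains the E-box CACGTG and is typical of genes for lysosomal proteins, was present in 1.85% of promoters on either strand. Counted by gene over all listed starts, it lay upstream of 2.11% of 27025 genes and of 3 of the 7 members found in the RefSeq table (Ctsb was not matched). The matches of Lgmn and Ctsa lie at the second listed start, within the gene's span (intronic for Lgmn in the GENCODE vM21 model), and none was found at the first. Of the Ctsd matches, the one nearer the listed start also lies within the gene's span. The matches of Lgmn, Ctsa and Ctsd are printed 5′ to 3′ along the gene's strand with the motif in capitals:
Lgmn, chr12:102439125-102439154, minus strand: atggaatgtctGTCACGTGgtccattttat
Ctsa, chr2:164833748-164833777, plus strand: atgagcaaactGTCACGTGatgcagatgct
Ctsd, chr7:142387907-142387936, minus strand: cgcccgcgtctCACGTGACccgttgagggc
Ctsd, chr7:142388054-142388077, minus strand: tccccCACGTGACctgtatccagt
The same motif was found for 7 of 37 other lysosomal genes with a RefSeq promoter. A CACGTG without these flanks lay before the listed Ctsl start, within the gene's span. These are matches of letters and show no binding.

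**Figure D1:**
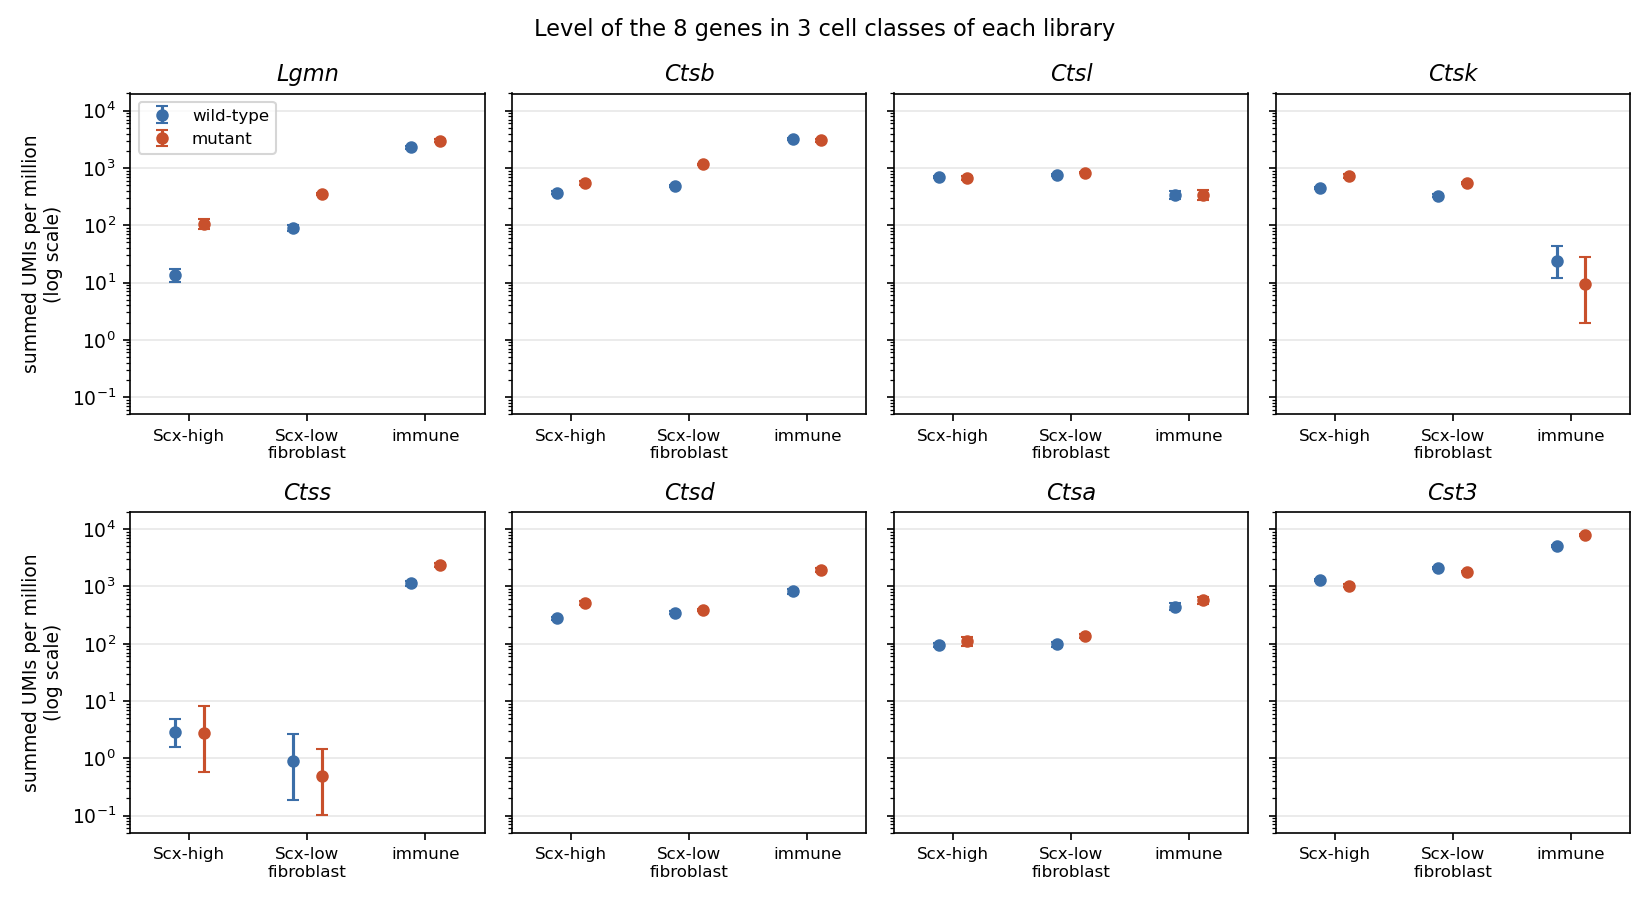
Summed CPM (log axis) of the 8 genes in Scx-high cells, Scx-low fibroblasts and immune cells of the wild-type (blue) and mutant (orange) library; points are class sums and bars exact 95% Poisson intervals. Lgmn climbs from 13.3 CPM in wild-type Scx-high cells to 2285 in wild-type immune cells, Ctss stays under 3 CPM outside immune cells, and Ctsk is lowest in immune cells.

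Legumain was the member that differed most between the libraries outside immune cells. In Scx-high cells Lgmn stood at 13.3 CPM (10.3 to 17.0, 65 UMIs) in the wild-type library and at 106 CPM (87.7 to 127, 115 UMIs) in the mutant, 7.97 times as high (5.83 to 10.97), and 5.07 times with cells that were also immune kept in the class. In Scx-low fibroblasts the levels were 89.4 CPM (79.5 to 100.2, 295 UMIs) and 349 CPM (335 to 365, 2097 UMIs), a ratio of 3.91 (3.46 to 4.43). Both mutant values were above the wild-type intervals of the same class, and the level in mutant Scx-high cells was close to that in wild-type fibroblasts, at 1.19 times it (0.949 to 1.48). Across the classes, mutant Scx-low fibroblasts had 26.2 times the Lgmn level of wild-type Scx-high cells (20.5 to 34.1). Of the 8 genes 1, Lgmn, was at least 2-fold higher in mutant Scx-high cells, where 10.5% of 2481 genes with a mean of 50 CPM or more were as well and 3.91% were at least 2-fold lower. The median of all these genes was itself 1.23 times higher in the mutant (0.30 on the log2 scale), and the Lgmn ratio exceeded that shift.

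In immune cells Lgmn was at 2285 CPM (2149 to 2427) in the wild-type library and 2979 CPM (2792 to 3175) in the mutant, 1.30 times as high (1.19 to 1.42). The source of the library's Lgmn transcripts was distributed differently between the conditions. Immune cells carried 70.7% of all Lgmn UMIs in the wild-type library and 28.9% in the mutant. Scx-low fibroblasts carried 19.8% and 64.2%. Over the whole libraries Lgmn stood at 158 and 396 CPM, a ratio of 2.51 (2.36 to 2.67), and over Scx-high cells and fibroblasts together the ratio was 7.09 (6.34 to 7.95), in sums that also depend on the share of each class.

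Other macrophage genes were read in the same cells, since free RNA can enter any droplet. C1qa, C1qb, C1qc, Lyz2 and Ctss reached at most 0.254% of their immune-cell level in Scx-high cells or Scx-low fibroblasts of either library, and Cd68 at most 0.609%. Lgmn reached 3.91% of it in wild-type and 11.7% in mutant fibroblasts, and 0.583% and 3.57% in Scx-high cells. The Lgmn percentage was above that of each of these genes in all 4 groups of cells. Among cells with no UMI of the 4 immune genes, Lgmn was at 12.6 and 104 CPM in wild-type and mutant Scx-high cells and at 88.2 and 349 CPM in fibroblasts. No Lgmn UMI was found in 88 wild-type and 79 mutant cells in which haemoglobin genes took over 50% of UMIs. Haemoglobin took 95.6% and 96.9% of all UMIs of those cells, so this absence sets no close limit on free Lgmn RNA.

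The shares of cells followed the levels in Scx-high cells and Scx-low fibroblasts. After each cell was thinned to 1500 UMIs, 1.39% of 1079 wild-type Scx-high cells held an Lgmn UMI (0.780 to 2.28) against 14.8% of 216 mutant ones (10.4 to 20.3). In Scx-low fibroblasts the shares were 11.3% of 781 cells (9.14 to 13.7) and 28.4% of 1727 cells (26.3 to 30.6). In immune cells they were 89.7% (83.3 to 94.3) and 85.4% (76.7 to 91.8), with intervals that overlap. Without thinning the shares were 5.15% and 33.2% in Scx-high cells and 28.5% and 43.1% in fibroblasts, in cells of different depth.

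**Figure D2:**
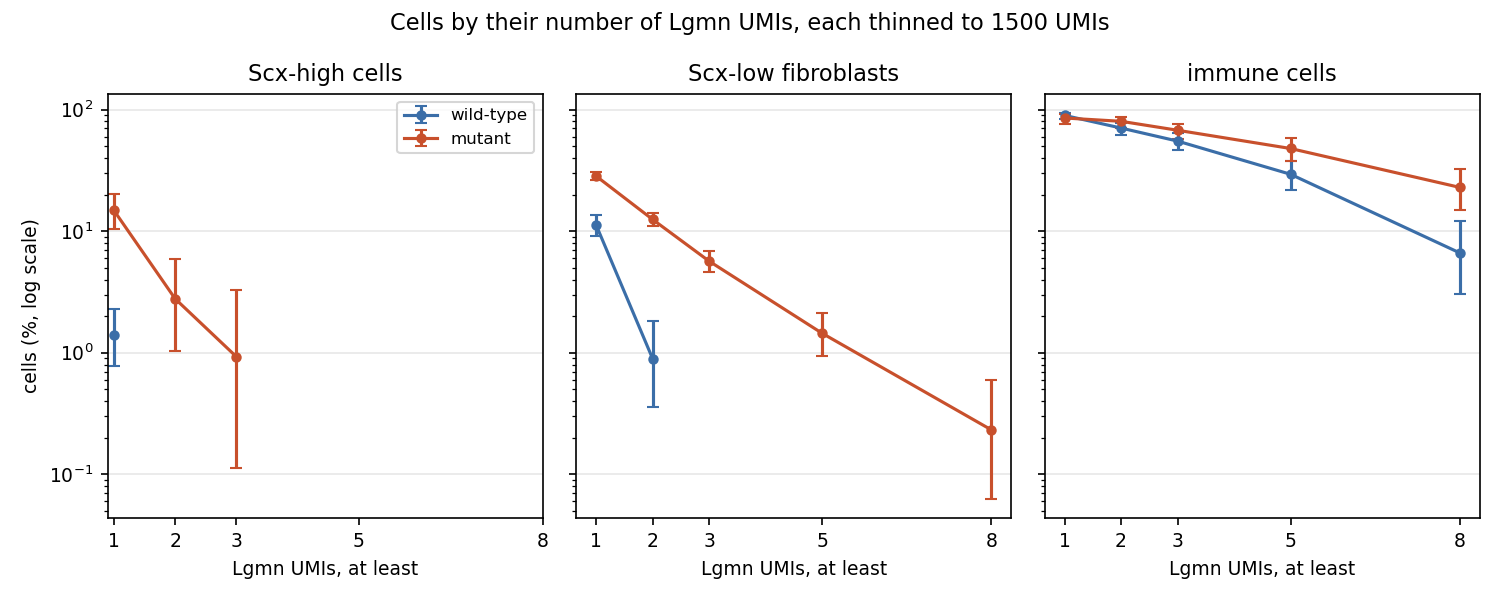
Percentage of cells (log axis) with at least 1, 2, 3, 5 or 8 Lgmn UMIs after thinning each cell to 1500 UMIs, in 3 classes of the wild-type (blue) and mutant (orange) library; bars are exact 95% binomial intervals and points with 0 cells are left out. Wild-type fibroblasts end at 2 UMIs, whereas 5.67% of mutant fibroblasts hold 3 or more.

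Lgmn was spread unevenly over mutant fibroblasts. At 3 or more UMIs after thinning there were 98 of 1727 mutant Scx-low fibroblasts (5.67%, 4.63 to 6.87) and 0 of 781 wild-type ones, for which the exact upper limit is 0.471% and the limit that 3 counts would set is 0.384%. The highest count in a single fibroblast was 28 UMIs in the mutant and 4 in the wild-type library, while wild-type immune cells reached 33. A level of 10 or more Lgmn UMIs per 10,000 was met by 211 of 1897 mutant fibroblasts (11.1%) and 1 of 824 wild-type ones (0.121%), and those 211 cells held 55.3% of the Lgmn UMIs of their class. That threshold was chosen after the values were seen.

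The 211 Lgmn-rich mutant fibroblasts were compared with the 1080 in the same class without an Lgmn UMI, as a description with no test, since Lgmn itself divided the cells. Their median depths were 2955 and 2690 UMIs. The class rule used Ly6a and Cd34, and within the class Ly6a, the gene for Sca-1, was at 1817 CPM against 676 and Cd34 at 543 against 618. Col1a1, a chain of type I collagen, was at 8999 against 12105. Macrophage genes were low in both, with C1qa at 6.40 and 1.90 CPM, Lyz2 at 6.40 and 6.96 and no UMI of Ctss in either. On few UMIs, some were higher in the Lgmn-rich cells. C1qb was at 12.8 against 1.58 CPM (8.10, 2.34 to 31.5, on 8 and 5 UMIs). C1qc was at 11.2 against 2.85 CPM (3.94, 1.25 to 11.9) and Cd68 at 11.2 against 3.16 CPM (3.54, 1.15 to 10.3). The ratio intervals of C1qa, Lyz2, Tyrobp and Csf1r held 1. Of the other members Ctsb differed most, at 2664 against 803 CPM, 3.32 times as high (3.12 to 3.53), and Ctsa was at 218 against 119 CPM (1.84, 1.498 to 2.24). Ctsl, Ctsk and Ctsd lay between 1.16 and 1.34 times the Lgmn-free level, and Cst3 was lower, at 1505 against 1950 CPM (0.772, 0.720 to 0.827). Over the 2823 genes with a mean of 50 CPM or more, 2.69% were at least 2-fold higher and 2.59% at least 2-fold lower in the Lgmn-rich cells.

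The genes with the highest ratio in Lgmn-rich cells were Msmp, a chemokine-like secreted protein, at 279 against 0.949 CPM and the collagenase gene Mmp13 at 291 against 1.26 CPM. Next came the chemokine Ccl8 (203 against 3.48 CPM), osteopontin (Spp1, 536 against 30.4 CPM) and lubricin (Prg4, 271 against 33.2 CPM). Wild-type fibroblasts held no Msmp or Mmp13 UMI. Contractile and elastic-fibre genes went the opposite way, with Acta2 at 17.6 against 718 CPM, Tagln at 12.8 against 467 and elastin (Eln) at 395 against 5805. All of these names were picked from the ends of the ranking after the values were seen.

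**Figure D3:**
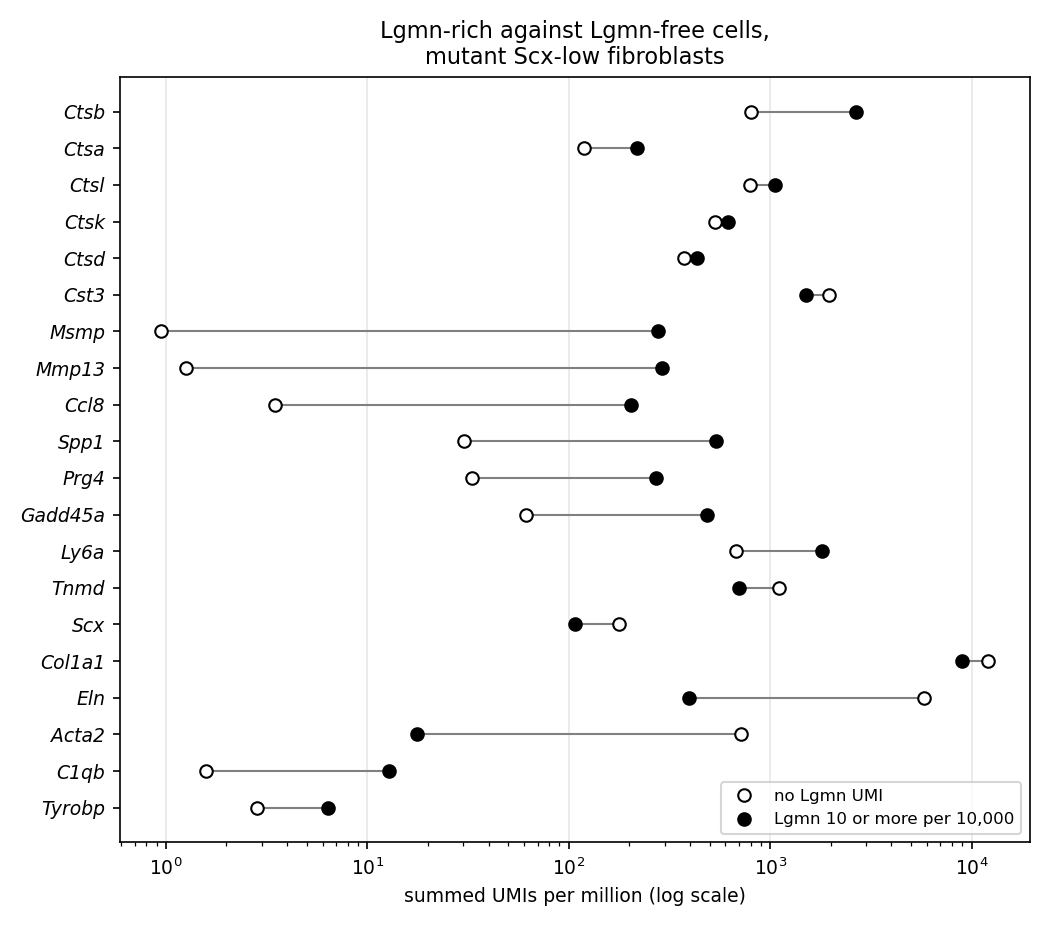
Summed CPM (log axis) in 211 mutant Scx-low fibroblasts with Lgmn at 10 or more per 10,000 UMIs (filled) and in 1080 without an Lgmn UMI (open), for other members of the set and for genes named in the text. Ctsb, Mmp13 and Spp1 lie to the right in Lgmn-rich cells, Cst3, Eln and Acta2 to the left, and C1qb and Tyrobp stay under 13 CPM in both.

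The level of Lgmn fell as Scx rose, in both libraries. In cells without immune identity, wild-type Lgmn was at 85.1 CPM at Scx 0, 95.4 above 0 to 5 per 10,000, 87.3 from 5 to 30, 24.96 from 30 to 100 and 12.1 at 100 or more. The mutant went from 348 CPM at Scx 0 through 321, 234 and 129 to 95.04 CPM at 100 or more. At each of the 5 steps the mutant was higher, by 2.68 to 7.88 times, with the largest ratio at the highest Scx (5.43 to 11.5), whose interval overlaps that of the step before it. The wild-type profile was flat up to 30 per 10,000 and then dropped, whereas the mutant profile declined from step to step.

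Scx-high cells of the libraries also differed in genes of other cell types. Mural genes summed to 394 and 936 CPM in wild-type and mutant ones and muscle genes to 3.28 and 101, whereas endothelial genes were at 8.82 and 3.69. Leaving out cells with mural, endothelial or Schwann markers kept 1117 of 1165 wild-type and 173 of 235 mutant cells, with an Lgmn ratio of 9.56. Of all mutant Scx-high cells 182 of 235 carried 5 or more fibroblast UMIs, and of the wild-type ones 188 of 1165, so Lgmn was read at like fibroblast counts. At 1 to 4 fibroblast UMIs it was 10.1 CPM in 586 wild-type and 64.5 in 39 mutant cells (6.39, 2.33 to 15.2). At 5 to 14 UMIs it was 24.1 and 117 CPM (4.85, 2.39 to 10.01), and at 15 or more 47.6 and 117 CPM (2.45, 1.36 to 4.78). In cells with no fibroblast UMI the wild-type level was 7.53 CPM in 391 cells, and the 14 mutant cells held none, which allows up to 75.3 CPM. Lgmn was higher in the mutant in the 3 strata with fibroblast UMIs, and the intervals of the 3 ratios overlap.

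Within Scx-low fibroblasts, Pi16, a gene of adventitial fibroblasts, and tenomodulin (Tnmd), a tendon marker, were used to divide the class. Mutant Lgmn was 363 CPM in cells with and 346 CPM in cells without a Pi16 UMI, and wild-type Lgmn 94.1 and 86.3 CPM. With Tnmd at 5 or more per 10,000 it was 57.1 CPM in wild-type cells and 97.5 CPM below that, whereas mutant cells stood at 333 and 358 CPM. The mutant over wild-type ratio was 5.83 (4.205 to 8.31) with Tnmd and 3.67 (3.21 to 4.207) below that level, intervals that just meet.

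**Figure D4:**
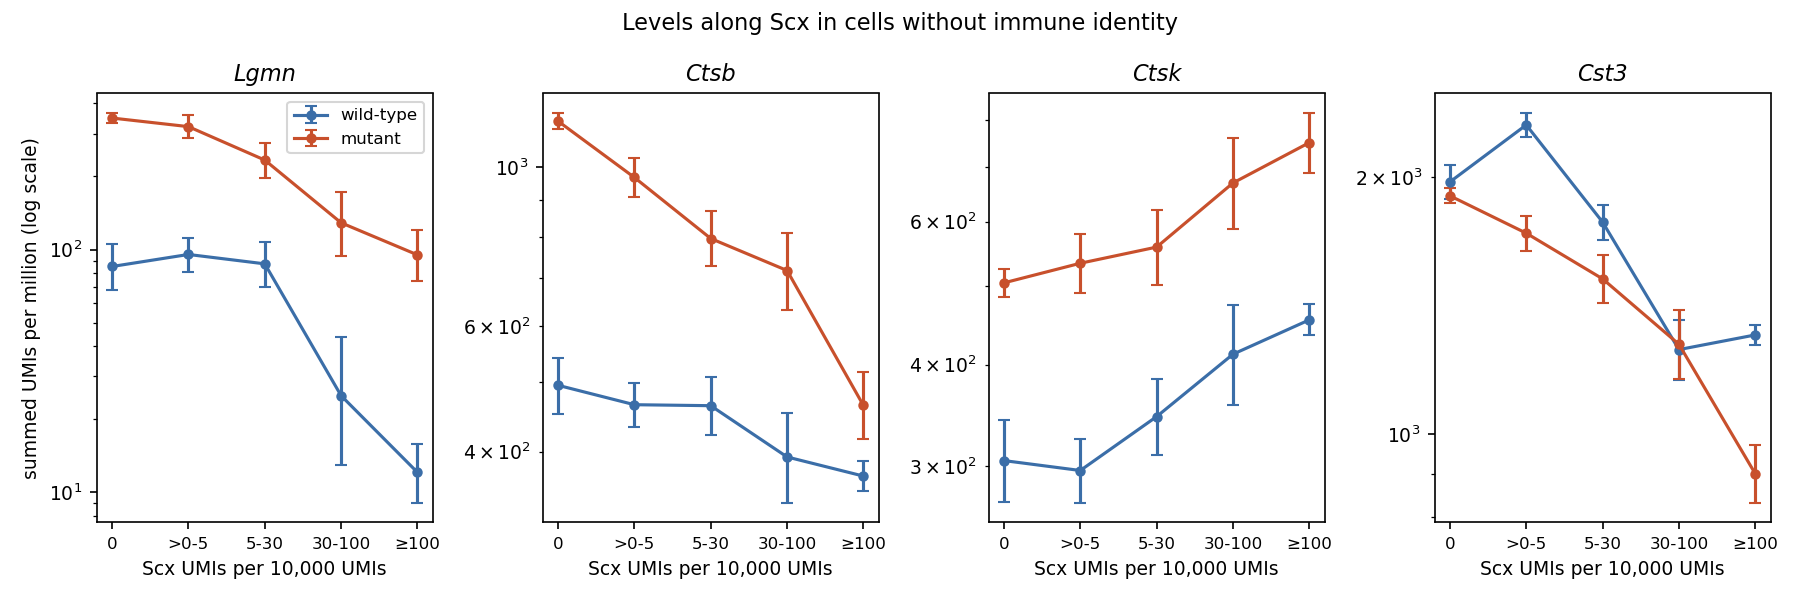
Summed CPM (log axis, its range set per panel) of Lgmn, Ctsb, Ctsk and Cst3 in cells without immune identity, by Scx UMIs per 10,000, in the wild-type (blue) and mutant (orange) library; bars are exact 95% Poisson intervals. Lgmn and Ctsb decline with Scx in the mutant, Ctsk is highest at the highest Scx in both libraries, and mutant Cst3 drops from 1901 CPM at Scx 0 to 899 at 100 or more.

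Cathepsin B, a papain-family protease that also cuts off dipeptides, was the other member past 2-fold in fibroblasts. Ctsb was at 489 CPM (466 to 514) in wild-type and 1154 CPM (1127 to 1181) in mutant Scx-low fibroblasts, a ratio of 2.36 (2.23 to 2.49). In fibroblasts 2 of the 8 genes, Lgmn and Ctsb, were at least 2-fold higher, where 2.76% of 2863 genes were and 4.09% were at least 2-fold lower. Both were known from the paper to be higher in mutant cells, so that share gives scale and is no independent result. Mutant Scx-low fibroblasts had 3.10 times the Ctsb level of wild-type Scx-high cells (2.94 to 3.27). In Scx-high cells Ctsb was at 372 and 548 CPM (1.47, 1.34 to 1.62), or 1.19 times once centred on the median of all genes. In immune cells it was at 3201 and 3036 CPM (0.948, 0.874 to 1.03), with intervals that overlap. Thinned to 1500 UMIs, 48.7% of wild-type and 72.5% of mutant fibroblasts held a Ctsb UMI. Haemoglobin-rich cells held one in 6.49% and 8.45%. They had 45 and 19 Ctsb UMIs in all, against 18 and 5 of Cst3, which was the more abundant gene in both whole libraries. Whether these Ctsb UMIs were free RNA or the cells' own was not tested. Few UMIs other than haemoglobin were left in those cells, so the absence of Lgmn there does not show that free Lgmn RNA was lacking.

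Along Scx, Ctsb declined more in the mutant library. From Scx 0 to 100 or more per 10,000 the mutant level went from 1161 to 464 CPM and the wild-type level from 495 to 370 CPM, and the mutant over wild-type ratio went from 2.34 (2.13 to 2.58) to 1.26 (1.11 to 1.41). Ctsb also went with Lgmn within cells. Of thinned mutant fibroblasts with an Lgmn UMI 85.3% of 491 also held Ctsb (81.9 to 88.4), against 67.4% of 1236 without (64.7 to 70.0). In wild-type fibroblasts those shares were 44 of 88 (39.1% to 60.9%) and 48.5% of 693 (44.7 to 52.3), which could not be separated by counting error.

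Cathepsin K was a gene of tendon cells and fibroblasts here and not of immune cells. Ctsk was at 450 CPM (431 to 469) in wild-type and 724 CPM (674 to 776) in mutant Scx-high cells, a ratio of 1.61 (1.48 to 1.75), or 1.30 once centred on the median of all genes. Scx-low fibroblasts had 328 and 547 CPM (1.67, 1.55 to 1.79). Immune cells had 11 and 3 UMIs in all, 23.9 and 9.48 CPM, and markers of osteoclasts, its best-known source, summed to 13.0 and 60.0 CPM there with 5 and 2 of 6 at 0. From no Scx to the highest Scx its level went, in both libraries upward, from 305 to 454 CPM in wild-type cells and from 504 to 751 CPM in mutant cells.

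Cathepsin L, a broad endopeptidase, differed little between the libraries. Ctsl stood at 694 and 668 CPM in Scx-high cells (0.962, 0.886 to 1.04), at 768 and 828 CPM in fibroblasts (1.08, 1.03 to 1.13) and at 339 and 341 CPM in immune cells (1.01, 0.781 to 1.30), wild-type first. The upper ends of these intervals were at most 1.30, but they cover counting error alone and set no bound on a difference between conditions. Ctsl did vary between fibroblasts: cells with a Pi16 UMI had 975 and 971 CPM in the wild-type and mutant library, and cells without had 630 and 790 CPM (1.25, 1.18 to 1.34).

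Cathepsin S was an immune gene with next to no signal elsewhere. Immune cells held 521 of 553 Ctss UMIs of the wild-type library and 745 of 788 of the mutant. Scx-high cells were at 2.87 and 2.77 CPM and fibroblasts at 0.909 and 0.4997 CPM, all but the first on 3 UMIs each. Wild-type immune cells had 1130 CPM (1036 to 1232) and mutant ones 2353 CPM (2187 to 2529), a ratio of 2.08 (1.86 to 2.33). The neighbouring Ctsk had the reverse contrast, with immune cells the lowest of these 3 classes.

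Cathepsin D, the aspartyl member, was the other gene past 2-fold in immune cells. Ctsd was at 829 CPM (748 to 916) in wild-type and 1917 CPM (1768 to 2076) in mutant immune cells, a ratio of 2.31 (2.03 to 2.64). In immune cells 2 of the 8 genes, Ctsd and Ctss, were at least 2-fold higher, where 3.80% of 2761 genes were and 3.98% were at least 2-fold lower. In Scx-high cells Ctsd was at 278 and 517 CPM (1.86, 1.68 to 2.06), or 1.51 times once centred on the median of all genes. Its uncentred ratio reached 2.02 (1.80 to 2.26) at Scx of 100 or more, while fibroblasts differed little, at 351 and 388 CPM (1.11, 1.03 to 1.19). The wild-type library had more Ctsd in fibroblasts than in Scx-high cells (1.26 times, 1.17 to 1.37) and the mutant had less (0.751, 0.684 to 0.825). The first of these fell to 0.983 once ratios were centred on the median of all genes.

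The immune cells of the libraries were not of the same makeup. MHC class II and other antigen-presenting genes summed to 677 CPM in wild-type and 10026 CPM in mutant immune cells, neutrophil genes to 4.34 and 1301 CPM and mast cell genes to 1762 and 2473 CPM. Cells with 3 or more UMIs of the complement genes C1qa, C1qb and C1qc, which mark resident macrophages, numbered 168 of 175 and 152 of 172. In these alone Ctsd was at 832 and 2131 CPM (2.56, 2.24 to 2.92), Ctss at 1126 and 2407 CPM (2.14, 1.90 to 2.41), Lgmn at 2360 and 3427 CPM (1.45, 1.33 to 1.59) and Ctsb at 3284 and 3460 CPM (1.05, 0.970 to 1.14). The ratios of Ctsd and Ctss were as large there as in all immune cells. Among the cells with under 3 C1q UMIs, 9 mutant cells had 3 or more UMIs of H2-Aa, H2-Ab1, H2-Eb1 and Cd74 and no wild-type cell did, and these 9 cells held Cst3 at 22898 CPM.

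Cathepsin A, the protective carboxypeptidase, stood between 1.16 and 1.40 in the 3 classes. Ctsa was at 95.8 and 111 CPM in Scx-high cells (1.16, 0.939 to 1.42), or 0.937 times once centred on the median of all genes. It was at 97.9 and 137 CPM in fibroblasts (1.40, 1.23 to 1.60) and at 443 and 575 CPM in immune cells (1.30, 1.06 to 1.59). Its gene overlaps Neurl2 and Pltp on the opposite strand, and Ctsb overlaps Fdft1, for which the counting relied on the strand kept by the 3′ kit.

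The inhibitor was lower in the mutant library within Scx-high cells and within Scx-low fibroblasts, and higher in immune cells. Cst3 was at 1302 CPM (1270 to 1335) in wild-type and 1023 CPM (964 to 1085) in mutant Scx-high cells, 0.786 times as high (0.736 to 0.838), and 0.636 times once centred on the median of all genes. In Scx-low fibroblasts it was at 2107 and 1808 CPM (0.858, 0.832 to 0.884). Over these 2 classes summed, whose shares differ between the libraries, it was slightly higher, at 1627 and 1688 CPM (1.04, 1.01 to 1.06). In immune cells it was higher in the mutant, at 5112 and 7951 CPM (1.56, 1.47 to 1.65), and 1.31 times as high (1.23 to 1.40) among C1q-bearing cells. A single mutant immune cell held 318 of the 2517 Cst3 UMIs of its class, and the mean of per-cell CPM gave a ratio of 1.29. The fibroblast difference went with cells that carried other markers. Mural genes such as Rgs5 and Acta2 summed to 4965 CPM in wild-type and 605 CPM in mutant fibroblasts, and Schwann genes to 2.42 and 269 CPM, and without cells bearing mural, endothelial or Schwann markers (705 and 1794 fibroblasts left) the Cst3 ratio was 0.9999. In the same cells the Lgmn ratio was 4.18 and the Ctsb ratio 2.26. It was also uneven along the class: 0.683 (0.647 to 0.722) in cells with a Pi16 UMI and 0.988 (0.950 to 1.03) in those without.

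Set against the papain-family proteases, there were 0.857 Cst3 UMIs for each UMI of Ctsb, Ctsk, Ctsl and Ctss in wild-type Scx-high cells and 0.527 in mutant ones. The ratio was 1.33 and 0.715 in fibroblasts, and 1.09 and 1.39 in immune cells. It compares transcripts counted at their 3′ ends and not protein or activity. The makeup of that protease sum also differed: Ctsb made up 30.9% of it in wild-type and 45.6% in mutant fibroblasts, Ctsl 48.4% and 32.7%, and Ctss 24.1% and 41.0% in wild-type and mutant immune cells.

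**Figure D5:**
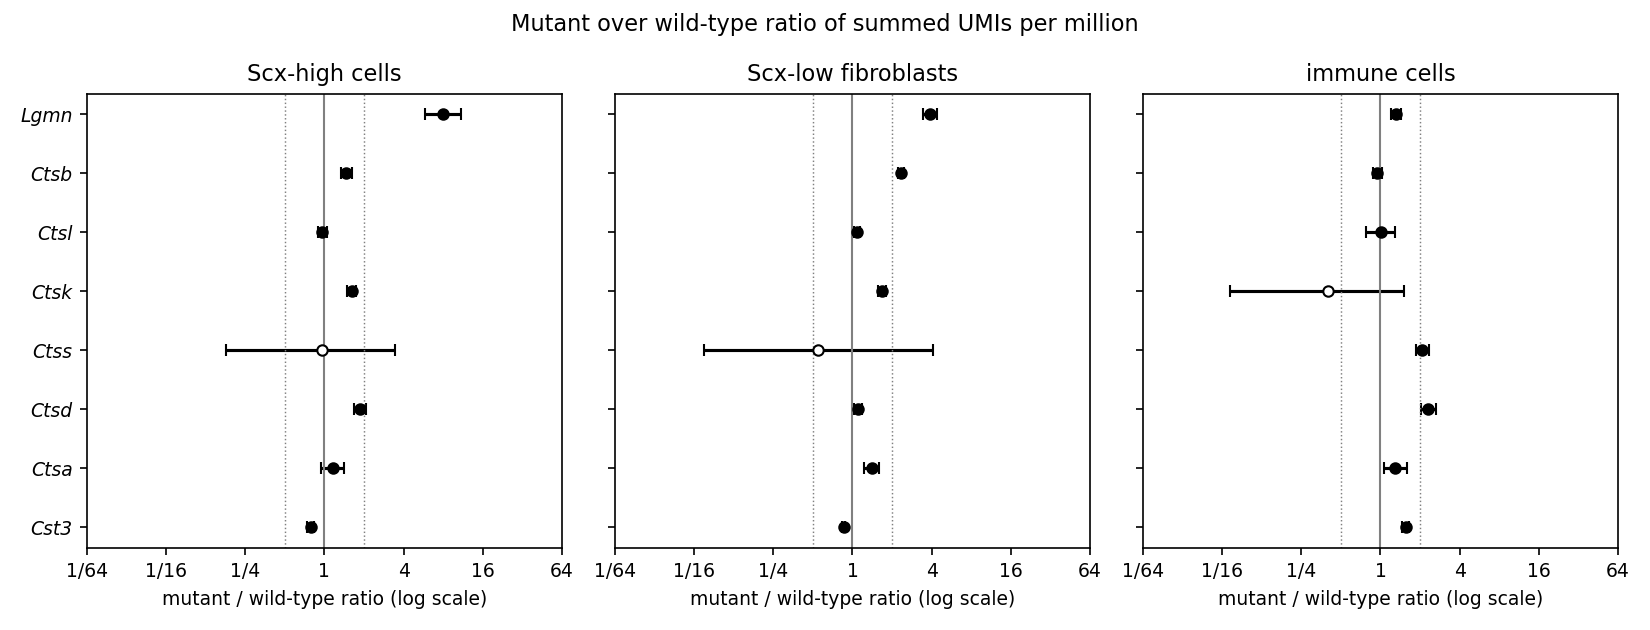
Mutant over wild-type ratio of summed CPM (log axis) for the 8 genes in each class; bars are exact 95% conditional intervals for counting error, open points have 3 or fewer UMIs on a side, and dotted lines mark 2-fold. Lgmn stands apart in Scx-high cells (7.97) and fibroblasts (3.91), Ctsd and Ctss in immune cells, and Cst3 is left of 1 in the first 2 classes.

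Between the classes of 1 library, immune cells were set apart most. In the wild-type library 6 of the 8 genes were at least 2-fold higher in immune cells than in Scx-low fibroblasts and 2 at least 2-fold lower, against 16.3% and 18.8% of 2952 genes. Lgmn was 25.6 times as high (22.4 to 29.2), Ctsb 6.54, Ctsa 4.52, Cst3 2.43 and Ctsd 2.36 times, and Ctss 1244 times (423 to 6050, on 3 fibroblast UMIs). Ctsk was 13.7 times lower (7.65 to 27.6) and Ctsl 2.27 times lower. In the mutant library the same 6 genes were at least 2-fold higher and the same 2 lower, against 18.9% and 18.1% of 2923 genes, with Lgmn at 8.53 times (7.89 to 9.21), Ctsb at 2.63, Cst3 at 4.40 and Ctsd at 4.94 times the fibroblast level.

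Between Scx-low fibroblasts and Scx-high cells, 1 of the 8 genes was at least 2-fold higher in fibroblasts of the wild-type library, Lgmn at 6.71 times (5.11 to 8.91), where 16.6% of 2595 genes were and the median of all was 1.29 times higher. No member with a mean of 50 CPM was 2-fold lower, against 5.01% of genes. In the mutant library 2 of the 8 were higher, Lgmn at 3.29 times (2.73 to 4.004) and Ctsb at 2.11 (1.94 to 2.29), against 6.03% of 2769 genes, and 0 lower, against 4.62%. Ctsk was lower in fibroblasts in both, at 0.729 (0.678 to 0.785) and 0.755 times (0.698 to 0.817).

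Cells chosen by endothelial and mural genes were few, 15 and 45 of them wild-type and 20 and 71 mutant. Lgmn in mural cells was 144 CPM (89.3 to 220) and 126 CPM (80.6 to 187), with overlapping intervals. In the class chosen by endothelial genes it was 56.9 CPM (11.7 to 166) and 106 CPM (38.9 to 231), but the libraries are not compared there, since the mutant class held Schwann genes at 38577 CPM and endothelial genes at 4068, and the wild-type class Schwann genes at 0 and endothelial genes at 4719. Leaving that class out, the wild-type order of levels ran from immune through mural cells and fibroblasts to Scx-high cells, with mural cells and fibroblasts overlapping. In the mutant library fibroblasts came second, separated from the classes on either side, and mural and Scx-high cells overlapped.

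Other lysosomal genes past 2-fold between the libraries were counted beside the share of all genes. A list of 51 gene symbols was read, for hydrolases, membrane proteins, proton pump subunits and others such as inhibitors, sorting receptors and transcription factors. All but Limp2, 50 symbols, were in the matrices. In fibroblasts 20 of them passed a mean of 50 CPM and 0 were past 2-fold in either direction, with a median ratio of 1.12 against 0.983 for all genes. Of 2863 genes past that mean, 2.76% were higher and 4.09% lower by 2-fold. Counts from 20 genes are too few to separate from those shares. Lamp2, a membrane protein of the lysosome, at 123 and 236 CPM, had the highest ratio of the listed genes (1.92). Psap, the saposin precursor, at 239 and 124 CPM, and the pump subunit Atp6ap1 had the lowest (0.518 and 0.747). In Scx-high cells 18 passed that level, 0 were higher and 1 was lower by 2-fold, Psap at 201 and 94.2 CPM. Of all 2481 genes past it, 10.5% were higher and 3.91% lower. The median ratio there was 1.42 against 1.23 for all genes, and Gusb (1.97) and Asah1 (1.79) stood highest, Psap (0.469) and Cd63 (0.825) lowest.

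In immune cells 31 listed genes passed, 1 was higher and 2 were lower by 2-fold, against 3.80% and 3.98% of 2761 genes. Cathepsin H, an aminopeptidase, was the higher one: Ctsh was at 65.1 CPM in wild-type and 449 CPM in mutant immune cells (6.89, 4.62 to 10.6) and Ctsf had the lowest ratio (0.404). Ctsh also divided the tendon classes. It was at 122 CPM in wild-type Scx-high cells and 33.0 CPM in wild-type fibroblasts, the lowest fibroblast over Scx-high ratio of the list in both libraries (0.271 and 0.227). Between immune cells and fibroblasts 20 of 28 listed genes were at least 2-fold higher in wild-type immune cells and 18 of 27 in mutant ones, led by Cd68 and Ctsc, and 0 were lower. Of all genes 16.3% and 18.9% were higher in the wild-type and mutant library, and 18.8% and 18.1% lower.

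The genes most like each member were sought over 9 units of class and library with 20 or more cells, by Pearson correlation of log2(CPM + 10) across 5790 genes. These units share libraries and classes and include the immune pair, and the values are descriptions. Nearest to Lgmn were Commd10 (0.961), Unc93b1 (0.960) and the ferritin heavy chain Fth1 (0.958). For Cst3 they were Il18 and Irf5 (0.983 and 0.970), for Ctsb Slc9a9, Ccl7 and Rps29 (0.973 to 0.982), and for Ctss Snx20, Fcgr2b and Ms4a7, at 0.9995 to 0.9997. Ctsk had Angptl2, Wls and Ndrg4 (0.977 to 0.983), Ctsl had Clmp and Dnm1 (0.969 and 0.947), Ctsa had Dcxr, Mfsd1 and B2m (0.963 to 0.981) and Ctsd had Creg1, Ctsz and Mfsd1 (0.953 to 0.968). Mfsd1 stood in both of the last 2 groups.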

How the data were processed

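Single-cell RNA-seq (10x Chromium 3′ kit) was analysed for 2 libraries, 1 labelled wild-type and 1 mutant. The deposited values are raw UMI counts per gene and cell, which the authors made with Cell Ranger at default settings on mm10 (the submitters' processing notes name version 1.2.0), keeping cells by total UMI count. No counts were altered. Depth was 9451606 and 8250248 UMIs in 2364 and 2592 cells, and the median cell held 3866 and 2828 UMIs, so genes under 3 UMIs in a class were read as not measurable.

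Cells with over 50% haemoglobin UMIs, and 14 wild-type and 13 mutant cells that met the immune and another rule, were kept out of the 3 classes. Doublets stayed in. Counts were summed by class and divided by the class total (CPM). Ratios carry exact conditional binomial intervals, levels exact Poisson and shares exact Clopper-Pearson intervals, all at 95% and for counting error only. Shares were thinned to 1500 UMIs, leaving out shallower cells (86, 43 and 39 wild-type and 19, 170 and 76 mutant Scx-high, fibroblast and immune cells). A gene was past the fold at 2 or more, or 0.5 or less, among genes with a mean of 50 CPM. With 1 library per group no test was run. The members and lists were chosen with earlier results of these data known. Named were the 8 genes, the 2 highest and 2 lowest of 51 other lysosomal gene symbols per comparison, and 3 most alike genes per member. Some genes that this rule picks are not reported here. Alternatives covered class thresholds, cell filters, scrublet (scanpy 1.11.5), scaling, gene floor and fold. The code (Python 3.11.15, NumPy 2.4.6, SciPy 1.17.1) was checked on simulated data.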

Additional observations from a re-analysis of the deposited data

Results flagged for a closer look

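Cst3 differed in direction between classes. Its mutant over wild-type ratio was 0.786 in Scx-high cells and 0.858 in Scx-low fibroblasts, but 1.56 in immune cells. The difference between classes was not tested, since each condition was 1 library. Antigen-presenting genes were at 677 and 10026 CPM in wild-type and mutant immune cells, and mural genes at 4965 and 605 CPM in fibroblasts. In the separate mural class Cst3 itself was at 1504 and 1299 CPM, below the fibroblast levels of 2107 and 1808. Without cells bearing mural, endothelial or Schwann markers the fibroblast ratio was 0.9999. These cells were left out together, and the part of each type was not tested.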

How the results depend on the processing

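No paired analysis was possible because each group holds 1 library, and for the same reason no replicate could be left out. Of 125 recounts of members past 2-fold under an alternative, 116 stayed within 1.5 times of the reported count and none changed the direction of a member past 2-fold. In Scx-high cells, mutant over wild-type, the count of 1 became 2 with an Scx threshold of 100 per 10,000 (Ctsd joined), 3 at a fold of 1.5 (Ctsd and Ctsk joined) and 2 without mural, endothelial and Schwann cells (Ctsd joined). In fibroblasts over Scx-high cells of the wild-type library, the count of 1 became 0 with an Scx threshold of 100, since Lgmn fell under the 50 CPM floor, 2 with no floor (Ctss joined, lower) and 2 at a fold of 1.5 (Cst3 joined). In the mutant library the count of 2 became 1, Lgmn alone, with an Scx threshold of 10, with the mean of per-cell CPM, and without mural, endothelial and Schwann cells. The last setting, cells without immune UMIs and the C1q-bearing immune cells were added after the data were seen. Lgmn ranged from 5.07 to 9.56 in Scx-high cells and from 3.83 to 4.18 in fibroblasts, lowest in Scx-high cells when immune overlap cells were kept. Scrublet called 24 wild-type and 9 mutant cells (1.02% and 0.347% at an expected 2%). Of 144 recomputed shares 96 left the interval at 1500 UMIs and of 832 recomputed ratios 75 left the counting interval of the reported value.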

Other observations

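Cst3 also differed among cells outside the 5 named classes. The 105 mutant cells left unclassified held it at 3205 CPM against 1478 CPM in 38 wild-type ones. The highest count in a single mutant cell was 246 of the 714 Cst3 UMIs of the class. The share of cells with a Cst3 UMI went the other way, at 68.6% in the mutant against 84.2% in the wild-type library. Antigen-presenting genes, at 2298 and 13.2 CPM, neutrophil genes, at 1136 and 0 CPM, and Schwann genes, at 24781 and 251 CPM, were also higher in mutant than in wild-type cells of this class. Among the 105 mutant cells, the 33 with 3 or more UMIs of Schwann genes had Cst3 at 1478 CPM, the wild-type level, and the other 72 had 4059 CPM. The part of the antigen-presenting and neutrophil genes was not tested. The 12 cells that were both immune and Scx-high all came from the wild-type library, and the 13 mutant cells with 2 identities were immune and Scx-low fibroblast. Those 13 held Lgmn at 1198 CPM, between the levels of the classes they joined.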
